A study of Mus musculus with 6 samples.

Results

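Genes of polyamine metabolism were followed through the induced differentiation of MEL cells, a mouse erythroleukemia line that matures along the erythroid pathway when DMSO is added. The set comprised 9 genes, Odc1, Amd1, Srm, Sms, Azin1, Sat1, Smox, Oaz1 and Oaz2, out of 23896 genes to which the counted RefSeq transcripts could be assigned. Each gene was represented by its transcript with the highest mean count, and all 9 passed the filter on low counts. The 3 groups were cells at day 0 and cells collected on days 2 and 4 of culture with 2% DMSO, with 2 biological replicates per day and 6 libraries of mRNA in all. All groups came from this single transformed line. Cells kept without DMSO to day 2 or day 4 were not analysed here, so time in culture and DMSO cannot be told apart. In bulk libraries of this kind, fewer cells of a type and less RNA per cell cannot be told apart either.

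The polyamines putrescine, spermidine and spermine are small positively charged molecules that bind RNA and DNA, and proliferating cells hold large amounts of them. Odc1, ornithine decarboxylase, makes putrescine, and Amd1, S-adenosylmethionine decarboxylase, makes the aminopropyl donor that Srm (spermidine synthase) and Sms (spermine synthase) add to lengthen the chain. In the opposite direction Smox, spermine oxidase, converts spermine back to spermidine with release of hydrogen peroxide, and Sat1 acetylates spermidine and spermine for oxidation or export. The antizymes Oaz1 and Oaz2 bind ornithine decarboxylase, carry it to the proteasome and restrain polyamine uptake, whereas Azin1 resembles ornithine decarboxylase, lacks its activity and captures antizyme.

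Antizyme mRNAs are read in 2 frames, and full-length antizyme is made only when ribosomes shift by +1 base at a stop codon, a step that polyamines favour. The sites of both measured antizyme genes are shown because the mRNA level reported here comes before that step and does not show how much antizyme is made. In each sequence the capitals mark the last codon of the first frame and the stop codon, read 5′ to 3′ on the plus strand of GRCm38 from GENCODE transcripts of the gene. The base passed over by the annotated coding sequence is 80828295 on chromosome 10 for Oaz1 and 65686272 on chromosome 9 for Oaz2.
Oaz1, chr10:80828280-80828309: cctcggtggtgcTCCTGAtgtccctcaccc
Oaz2, chr9:65686257-65686286: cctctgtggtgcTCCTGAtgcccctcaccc
The 2 windows were identical at 28 of 30 bases.

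Counts on transcripts totalled between 35294930 and 53899476 per library, and the reads listed on no annotated feature made up 50.5% to 58.4% of the sum of these counts and those reads. Since a read can be counted for several transcripts, that figure is not a share of the reads of a library. The summed level of 8 erythroid markers, in TMM-scaled CPM (read counts relative to library size), lay between 681 and 750 at day 0, between 3858 and 4640 at day 2 and between 16812 and 18803 at day 4. At days 2 and 4 most of that sum was Hba-a1 and Hbb-bs. At day 0 the erythroid factors Gata1 and Klf1 each stood above either of these globin genes. The list did not move as one. Gata1 went from 202 and 203 CPM at day 0 to 261 and 263 CPM at day 4. Klf1 went from 192 and 309 CPM to 173 and 171 CPM. Globin transcripts took 0.0342% to 0.0427% of the counts in the day 0 libraries and 3.85% to 4.13% in those of day 4. Of the other cell types, the 4 lymphoid markers summed to at most 0.172 CPM, the 4 fibroblast markers to at most 3.24 CPM with Dcn at 0 throughout, and the 6 myeloid markers to at most 6.89 CPM. The 4 megakaryocyte markers summed to between 211 and 271 CPM at days 0 and 2 and to between 543 and 617 CPM at day 4, where nearly all of it was Itga2b. Pf4 of the same list went the other way, from 57.4 and 42.6 CPM at day 0 to 10.2 and 8.93 CPM at day 4, and Ppbp was listed at 0 in both day 4 libraries. The part of these shifts in the changes given below was not tested.

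**Figure D1:**
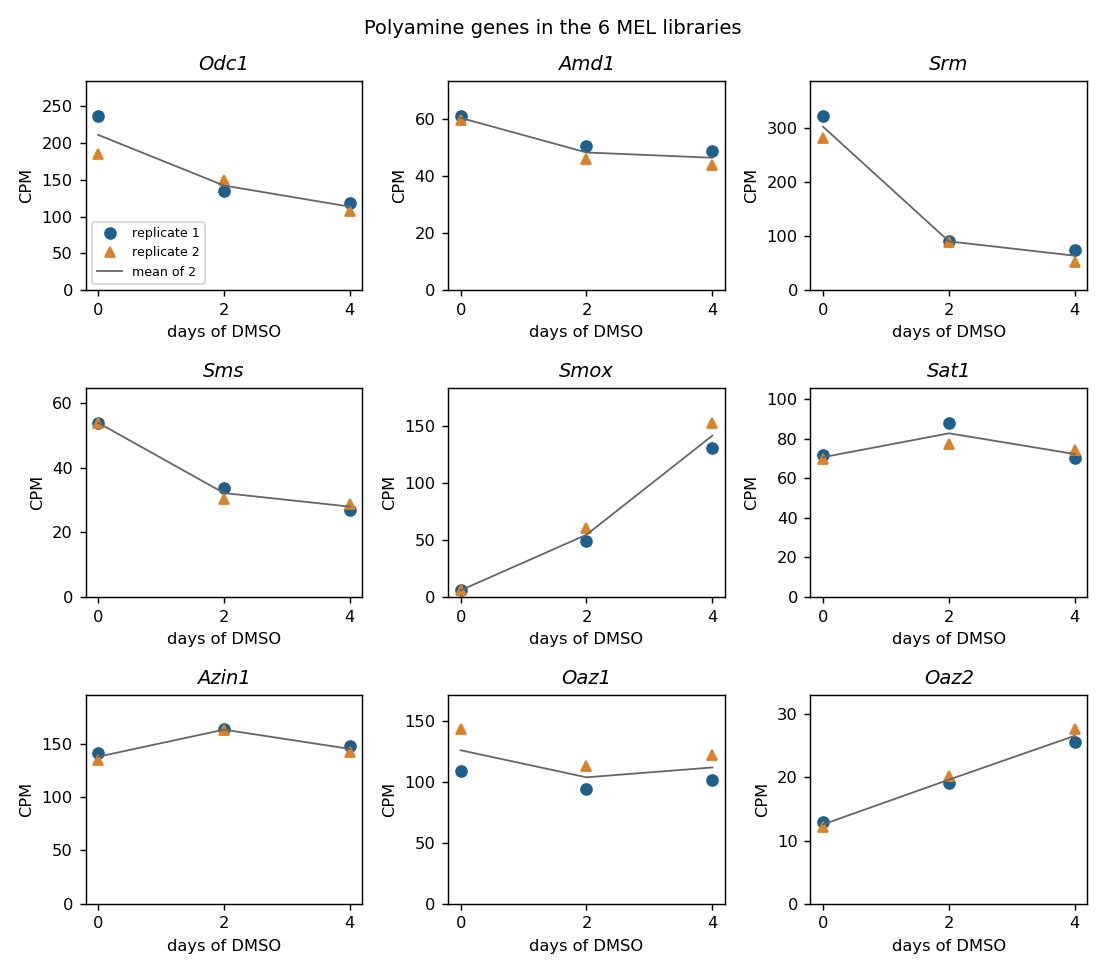
CPM of each member (vertical axis, separate scale for each gene) by day of DMSO (horizontal axis), with a point for each of the 2 replicates and a line through the day means. Srm fell from 302 to 63.7 CPM on average and Smox rose from 5.85 to 142 CPM, while Azin1, Sat1 and Oaz1 were not called in any comparison of days.

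The synthetic enzymes were examined first. All 4 of them, Odc1, Amd1, Srm and Sms, were called lower at day 2 and at day 4 than at day 0. Of all tested genes, 31.5% and 36.4% were called lower in these comparisons. Most of the decrease of the 4 had occurred by day 2. Srm fell furthest and Amd1 least, and the Amd1 calls were lost with scaling by total counts.

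Srm (NM_009272, chromosome 4, 148591513 to 148594619, GRCm38) was measured at 322 and 282 CPM in the day 0 replicates, 91.0 and 89.4 CPM at day 2 and 74.9 and 52.5 CPM at day 4. Every later library lay below every earlier one, without overlap between any pair of days. The log2 fold change was -1.74 (SE 0.158) from day 0 to day 2, with an edgeR adjusted p of 5.05e-06, and -0.50 (SE 0.155) from day 2 to day 4, with an edgeR adjusted p of 0.0313. Over the whole course Srm was 4.74-fold lower, a log2 fold change of -2.25 (SE 0.161, edgeR adjusted p = 4.59e-07). Of the 12381 genes tested, 623 had a lower log2 fold change from day 0 to day 4. The second step was no longer called without replicate 1 or 2 of day 2 or without replicate 2 of day 4. Its log2 fold change changed little without replicate 1 or 2 of day 2 (-0.49 and -0.52). It depended more on the day 4 libraries, at -0.78 without replicate 1 and -0.27 without replicate 2.

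Odc1 (NM_013614, chromosome 12, 17544808 to 17551502) was measured at 237 and 185 CPM at day 0, 134 and 150 CPM at day 2 and 119 and 108 CPM at day 4. The 3 days did not overlap, although the day 0 replicates differed more from each other than those of the later days. Odc1 fell by 0.57 (SE 0.134) on the log2 scale from day 0 to day 2 (edgeR adjusted p = 0.0034) and by 0.90 (SE 0.135) from day 0 to day 4 (edgeR adjusted p = 0.000113). The step from day 2 to day 4 was not called, with a log2 fold change of -0.33 (95% confidence interval -0.62 to -0.03) and an edgeR adjusted p of 0.0877. Without replicate 1 of day 2, the step from day 0 to day 2 was not called either (log2 fold change -0.49, adjusted p = 0.0559). The step from day 2 to day 4 was called without replicate 1 or replicate 2 of day 0, at -0.33 in each case. It was called as well with scaling by total counts (edgeR adjusted p = 0.0468) and with no filter beyond 1 count (edgeR adjusted p = 0.0355). With only these 2 days fitted it was also called (log2 fold change -0.33, edgeR adjusted p = 0.00792). All genes called then numbered 5426 in place of 3749, and they rose as well without a replicate of day 0.

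Sms (NM_009214, chromosome X, 157443851 to 157492287) stood at 54.0 CPM in both day 0 replicates, 33.9 and 30.5 CPM at day 2 and 27.1 and 28.9 CPM at day 4. The replicates lay close together and the days did not overlap. Sms fell by 0.75 (SE 0.112) on the log2 scale by day 2 (edgeR adjusted p = 0.000176) and by 0.95 (SE 0.112) by day 4 (edgeR adjusted p = 1.84e-05), while the change of -0.20 between days 2 and 4 was not called (edgeR adjusted p = 0.196, 95% confidence interval -0.45 to 0.05).

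Amd1 (NM_009665, chromosome 10, 40287458 to 40302188) was measured at 61.2 and 59.9 CPM at day 0, 50.6 and 46.2 CPM at day 2 and 49.0 and 44.1 CPM at day 4. The day 0 libraries lay above all others, and the libraries of days 2 and 4 overlapped. The log2 fold changes from day 0 were -0.32 (SE 0.108, edgeR adjusted p = 0.0218) at day 2 and -0.38 (SE 0.108, edgeR adjusted p = 0.00812) at day 4. Both calls were lost when libraries were scaled by total counts alone, with log2 fold changes of -0.13 (adjusted p = 0.348) and -0.26 (adjusted p = 0.0547). Leaving out a library also ended them, at day 2 without replicate 1 or 2 of day 2 (adjusted p = 0.0617 and 0.19) and at day 4 without replicate 2 of day 4 (adjusted p = 0.0936). The value cannot be assigned to Amd1 alone, because 91.3% of its 31-base words also occur in its near-identical copy Amd2, and the 6 libraries held 13612 counts for Amd1 and 13609 for Amd2.

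Reads of other members could also be shared with other genes, processed pseudogenes among them. The share of 31-base words found in at least 1 other gene was 58.5% for Oaz1, 52.0% for Odc1, 29.0% for Sms, 18.6% for Oaz2, 17.8% for Sat1 and 11.2% for Srm, and it was 0 for Smox and Azin1. Levels of Oaz1 and Odc1 are therefore uncertain, by an amount that these shares do not give, whereas Smox and Azin1 hold no such shared words.

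Of the catabolic enzymes, Smox rose at every step and Sat1 was not called at any. Smox (NM_001177833, chromosome 2, 131491858 to 131525183) was measured at 5.78 and 5.92 CPM at day 0, 48.8 and 60.4 CPM at day 2 and 130 and 153 CPM at day 4. The days were far apart and the lower library of each day lay well above the higher library of the day before. Smox was 9.32-fold higher at day 2 than at day 0 (log2 fold change 3.22, SE 0.145, edgeR adjusted p = 8.41e-08) and rose a further 2.59-fold by day 4 (log2 fold change 1.37, SE 0.129, edgeR adjusted p = 0.000123). From day 0 to day 4 it rose 24.2-fold (log2 fold change 4.60, SE 0.152, edgeR adjusted p = 6.88e-09), and 87 of 12381 tested genes had a larger log2 fold change. These values rest on 236 and 294 counts at day 0 and on 4702 and 6919 counts at day 4. All 9 annotated Smox transcripts were tested, and their log2 fold changes from day 0 to day 4 ranged from 4.53 to 4.62, but they share exons and reads and are not separate measurements.

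Sat1 (NM_009121, chromosome X, 155213126 to 155216449), the acetyltransferase, was measured at 71.4 and 69.7 CPM at day 0, 88.0 and 77.3 CPM at day 2 and 70.0 and 74.3 CPM at day 4. Its day 2 libraries were the highest, and those of days 0 and 4 overlapped. The log2 fold change was 0.23 from day 0 to day 2 (edgeR adjusted p = 0.0807) and 0.03 from day 0 to day 4 (edgeR adjusted p = 0.791), with a 95% confidence interval of -0.20 to 0.27 for the latter. With scaling by total counts alone the first of these was called (log2 fold change 0.43, adjusted p = 0.00465).

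The regulators of ornithine decarboxylase protein differed among themselves. Oaz2 rose, while the tests did not call Oaz1 or Azin1 at any step. Oaz2 (NM_010952, chromosome 9, 65676548 to 65690300) was measured at 13.0 and 12.1 CPM at day 0, 19.1 and 20.2 CPM at day 2 and 25.6 and 27.6 CPM at day 4. The 3 days were separated, with replicates of a day closer to each other than to any library of another day. Oaz2 was 2.12-fold higher at day 4 than at day 0 (log2 fold change 1.08, SE 0.121, edgeR adjusted p = 1.15e-05), with steps of 0.65 (SE 0.121, edgeR adjusted p = 0.000804) and 0.44 (SE 0.119, edgeR adjusted p = 0.0181). The second step was no longer called without replicate 1 of day 2 (adjusted p = 0.17), replicate 2 of day 2 (adjusted p = 0.0934) or replicate 2 of day 4 (adjusted p = 0.144).

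Oaz1 (NM_008753, chromosome 10, 80826656 to 80829290), the more abundant antizyme mRNA, was measured at 109 and 143 CPM at day 0, 94.4 and 114 CPM at day 2 and 102 and 122 CPM at day 4. The days overlapped, and replicate 2 lay above replicate 1 on each day. The log2 fold change from day 0 to day 4 was -0.17 (95% confidence interval -0.51 to 0.16, edgeR adjusted p = 0.323). This value depended on single libraries of both days. It was called without replicate 1 of day 0, at -0.36, and was 0.03 without replicate 2 of day 0. It was -0.05 without replicate 1 of day 4 and -0.31 without replicate 2 of day 4. The step from day 0 to day 2, -0.28 with an edgeR adjusted p of 0.127, was likewise called without replicate 1 of day 0, at -0.46. That step was -0.15 without replicate 1 of day 2 and -0.42 without replicate 2 of day 2.

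Azin1 (NM_001102458, chromosome 15, 38487430 to 38519294), the antizyme inhibitor, was measured at 141 and 134 CPM at day 0, 163 CPM in both day 2 replicates and 148 and 142 CPM at day 4. The day 2 libraries were the highest, and both day 4 libraries lay just above those of day 0. Its log2 fold change was 0.24 from day 0 to day 2 (edgeR adjusted p = 0.0556) and 0.07 from day 0 to day 4 (edgeR adjusted p = 0.523, 95% confidence interval -0.15 to 0.30). The step from day 0 to day 2 was called with scaling by total counts alone (log2 fold change 0.44, adjusted p = 0.0038) and without replicate 1 of day 0 (log2 fold change 0.28, adjusted p = 0.0268). A second Azin1 transcript gave nearly the same values, at 0.08 from day 0 to day 4.

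**Figure D2:**
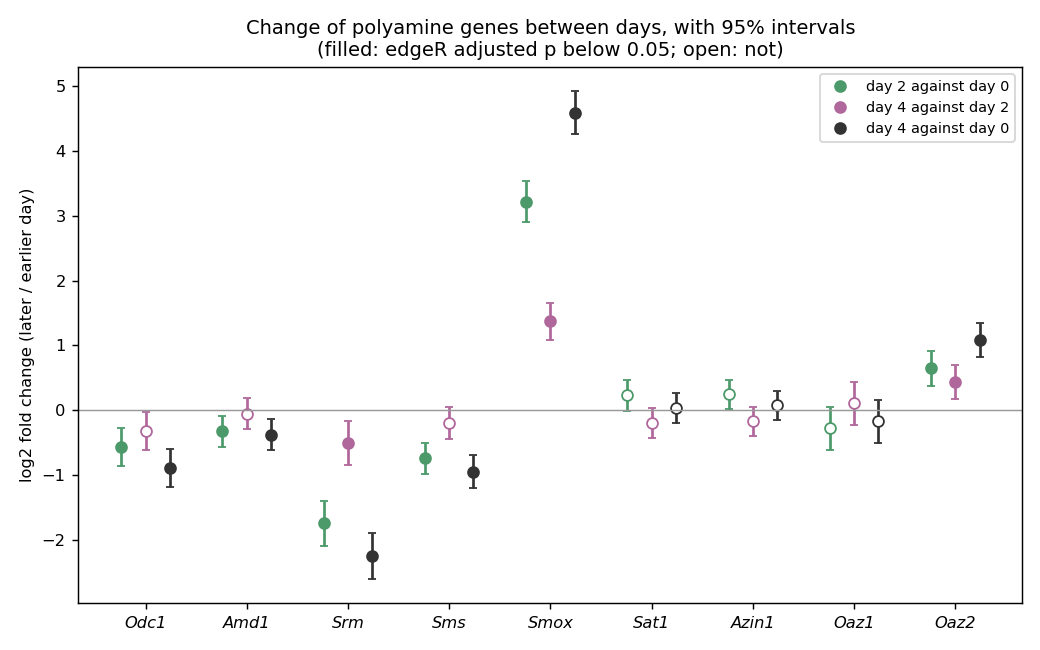
Log2 fold change of each member (vertical axis, later day over earlier day) in the 3 comparisons of days, shown by colour, with 95% confidence intervals from the edgeR fit and filled points for an adjusted p below 0.05. Smox stands apart at 3.22 and 4.60 from day 0 to days 2 and 4, the 4 synthetic enzymes lie below 0 in those comparisons, and the intervals of Azin1, Sat1 and Oaz1 lie close to or across 0.

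Counted over the set, 6 of 9 members were called between day 0 and day 2 by edgeR at an adjusted p below 0.05, 2 higher (Smox and Oaz2) and 4 lower (Srm, Sms, Odc1 and Amd1), where 62.5% of all tested genes were called, 31.0% higher and 31.5% lower. From day 2 to day 4, 3 members were called, Smox and Oaz2 higher and Srm lower, against 30.3% of all tested genes, 14.0% higher and 16.2% lower. From day 0 to day 4 the 6 members of the first step were called again in the same directions, against 71.8% of all tested genes, 35.5% higher and 36.4% lower. The share of members called was thus close to that of all genes in each comparison, and nothing particular to the set can be read from the number of calls. The median log2 fold change of the members was -0.28, -0.17 and -0.17 in the 3 comparisons, beside 0.01, -0.005 and -0.02 over all tested genes. These comparisons share libraries and are not independent of each other.

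To compare the members with one another, CPM was divided by the length of the representative transcript in kilobases. At day 0 Srm had the highest level, 226 ± 21.1 CPM per kilobase (SD, n = 2), followed by Oaz1 at 121 ± 23.1 and Odc1 at 95.6 ± 16.5, whose libraries overlapped. Below these were Sat1 at 60.7 ± 1.06, Azin1 at 32.7 ± 1.14, Amd1 at 18.9 ± 0.303, Sms at 14.5 ± 0.00656, Oaz2 at 6.82 ± 0.348 and, lowest of all, Smox at 2.70 ± 0.0451 CPM per kilobase. From Sat1 downwards the neighbours in this order did not overlap.

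By day 2 Oaz1 was highest at 99.6 ± 13.0 CPM per kilobase (SD, n = 2), and Sat1, Srm and Odc1 followed at 71.1 ± 6.52, 67.4 ± 0.895 and 64.4 ± 5.04, with overlap between neighbours. Below them, and without overlap, came Azin1 at 38.7 ± 0.0493, Smox at 25.2 ± 3.78, Amd1 at 15.1 ± 0.962, Oaz2 at 10.7 ± 0.405 and Sms at 8.67 ± 0.644 CPM per kilobase. By day 4 Oaz1 was still highest at 107 ± 13.7 CPM per kilobase. Smox had moved from the lowest place to a level of 65.2 ± 7.37, which overlapped that of Sat1 at 62.1 ± 2.61, and it lay above Odc1 at 51.4 ± 3.43 and Srm at 47.6 ± 11.9, which overlapped each other. Azin1 followed at 34.4 ± 0.881, then Amd1 at 14.5 ± 1.09 and Oaz2 at 14.4 ± 0.758, which overlapped, and Sms was lowest at 7.53 ± 0.357 CPM per kilobase.

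**Figure D3:**
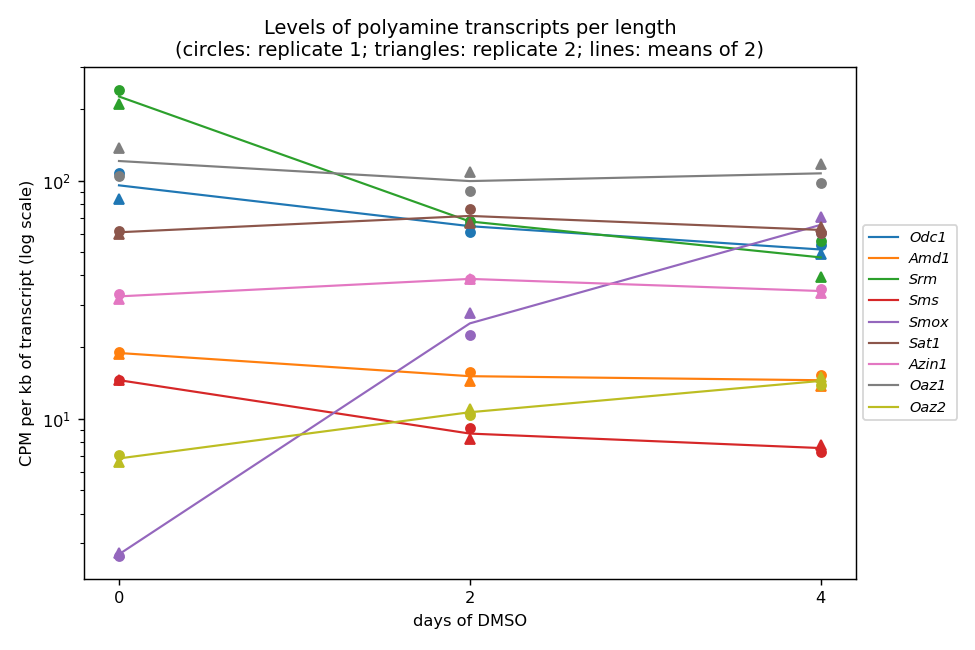
Level of each member in CPM per kilobase of transcript (logarithmic vertical axis) by day of DMSO, with points for the 2 replicates and lines through the day means. Smox crosses from the lowest level at day 0, 2.70, to 65.2 at day 4, past Odc1 and Srm, which decline from 95.6 to 51.4 and from 226 to 47.6.

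Ratios of such levels within a library do not depend on how libraries are scaled. The ratio of Smox to Odc1 per length was 0.0248 and 0.0325 at day 0, 0.370 and 0.409 at day 2 and 1.12 and 1.44 at day 4. By the representative transcripts, the oxidase mRNA thus went from a small fraction of the decarboxylase mRNA to exceeding it in both day 4 libraries. The order at day 4 depends on the transcript chosen. Another Smox transcript of 2299 bases held 4004 counts in replicate 1 of day 4, beside 4290 for Odc1 at 2208 bases. The Odc1 level is itself uncertain, since 52.0% of its 31-base words occur in other genes. Between the catabolic enzymes, the ratio of Smox to Sat1 went from 0.0434 and 0.0455 through 0.297 and 0.418 to 0.996 and 1.10, and the days did not overlap.

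The ratio of Oaz1 to Oaz2 was 14.8 and 20.9 at day 0, 8.72 and 9.95 at day 2 and 7.03 and 7.83 at day 4. Oaz1 remained the more abundant antizyme mRNA in every library, by a smaller margin each day. The ratio of Odc1 to its inactive relative Azin1 was 3.20 and 2.63 at day 0, 1.57 and 1.76 at day 2 and 1.54 and 1.45 at day 4, and it did not overlap between days. For the aminopropyl transferases, the ratio of Srm to Sms was 16.6 and 14.5 at day 0 and lay between 5.04 and 8.13 in the later libraries, with days 2 and 4 overlapping. The ratio of Odc1 to Oaz1 overlapped between days 0 and 2, at 1.03 and 0.611 against 0.673 and 0.625, and was 0.551 and 0.418 at day 4. No test was made of these ratios.

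Promoter windows from RefSeq (GRCm38.p6), 250 bases before to 50 bases after a transcription start, were matched for 7 of the 9 members and gave 8 windows, since Sms has 2. Srm and Azin1 had no window, so their promoters were not searched for any of these words. Windows were searched on both strands for CACGTG, the E-box bound by Myc, for GATAA and CCACACCC, short words bound by the erythroid factors Gata1 and Klf1, and for AGATAA with its variant AGATAG, as well as TGATAA with its variant TGATAG, a wider GATA spelling that partly overlaps GATAA and was searched after GATAA gave no match. GATAA was in 0 of the 8 windows and in 25.4% of 32851 promoter windows of all genes, and CCACACCC was in 0 of the 8 and in 3.56% of all. CACGTG was in 1 window, of Sms, and in 7.15% of all. The wider GATA spelling was in 2 windows, those of the called and rising members Smox and Oaz2, and in 29.8% of all windows, and 30 bases around each match are given here on the plus strand, with the word in capitals.
Smox, chr2:131491754-131491783: gtcccttttgcgAGATAGgggagtgcaggt
Oaz2, chr9:65676409-65676438: ctcttcccgagaTGATAGcttgcccttagt
The match lies 96 bases before the annotated start for Smox and 127 bases before it for Oaz2. A matching word does not show that a factor binds there, and the share of the 8 windows with a match was near that of all windows.

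The wider neighbourhood of the pathway was described from a list of 35 further genes in 5 roles, of which 20 passed the filter on low counts. From day 0 to day 4, 18 of the 20 were called by edgeR, 2 higher and 16 lower, with a median log2 fold change of -1.003, beside 71.8% of all tested genes called, 35.5% higher and 36.4% lower. Amd2, among the 16, held nearly the same counts as the member Amd1 and is no separate measurement. From day 0 to day 2, 14 were called, 2 higher and 12 lower, with a median of -0.50, beside 62.5% of all tested genes called, 31.5% lower. From day 2 to day 4, 7 were called, all lower, with a median of -0.30, beside 30.3% called, 16.2% lower. The total number of calls was thus close to the background in the last 2 of these comparisons, and no test of the list was made. The corresponding medians of all tested genes lay between -0.02 and 0.01. The count from day 2 to day 4 varied with the libraries used. It was lower when any 1 library of day 2 or day 4 was left out. It was higher when replicate 1 or replicate 2 of day 0 was left out. Calls over all genes moved in the same direction in each of these fits. With only the 2 days fitted the list gave 14 calls in place of 7, where all genes called numbered 5426 in place of 3749.

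Methylthioadenosine, the by-product of the spermidine and spermine synthases, is recycled to methionine by a salvage pathway. Of the 7 tested genes of methionine supply and salvage, 6 were called lower at day 4 than at day 0, where 36.4% of all tested genes were called lower. Mtap, the phosphorylase that opens the salvage route, was measured at 56.3 and 49.4 CPM at day 0, 19.3 and 19.6 CPM at day 2 and 16.5 and 14.0 CPM at day 4, and the days did not overlap. It fell by 1.80 on the log2 scale (SE 0.130, edgeR adjusted p = 5.04e-07). Enoph1, a later enzyme of the route, was at 60.7 and 48.7, 16.1 and 16.8, and 14.1 and 13.4 CPM on the 3 days and fell by 1.99 (SE 0.136, edgeR adjusted p = 3.34e-07). Mat2a, the methionine adenosyltransferase that makes S-adenosylmethionine, was the gene not called, at a log2 fold change of 0.28.

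Spermidine is also the source of hypusine, the modified lysine of the translation factor Eif5a, and of its 4 listed genes 3 were called lower and 1 higher at day 4 than at day 0. With 71.8% of all tested genes called in that comparison, 4 calls say little about the step. Eif5a was measured at 954 and 933 CPM at day 0, 363 and 386 CPM at day 2 and 326 and 290 CPM at day 4. Its days were fully separated, and it fell by 1.61 on the log2 scale from day 0 to day 4 (SE 0.123, edgeR adjusted p = 7.1e-07). Dohh, the hydroxylase that completes hypusine, was at 110 and 101, 39.3 and 40.4, and 29.6 and 28.3 CPM and fell by 1.86 (SE 0.107, edgeR adjusted p = 1.12e-07), although 66.7% of its 31-base words also occur in another annotated gene, Gm48551. Dhps was also lower at day 4 than at day 0, whereas Eif5a2, the second gene of the factor, rose by 0.64. Neither mean level moved in a single direction over the 3 days. Neither change from day 2 to day 4 was called, at an edgeR adjusted p of 0.059 for Dhps and 0.0694 for Eif5a2. Dhps was lowest at day 2, at 9.41 and 10.5 CPM, beside 13.0 and 13.5 CPM at day 4. Eif5a2 was highest at day 2, at 38.3 and 34.2 CPM, beside 29.7 and 28.4 CPM at day 4.

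Among 4 tested genes listed with ornithine and arginine supply, 3 were called lower at day 4 and 1 higher, where 36.4% of all tested genes were called lower and 35.5% higher. The higher gene was Azin2, which is an antizyme inhibitor like Azin1 rather than an enzyme of supply. Azin2 was measured at 0.613 and 0.685 CPM at day 0, 5.32 and 6.06 CPM at day 2 and 5.21 and 6.39 CPM at day 4. Both later days lay above day 0 and overlapped each other, with a log2 fold change of 3.15 (SE 0.220, edgeR adjusted p = 3.9e-07) from day 0 to day 4. Ass1, argininosuccinate synthase, was at 3.14 and 2.86, 1.08 and 1.04, and 0.332 and 0.663 CPM and fell by 2.55 (SE 0.295, edgeR adjusted p = 1.53e-05), with 61.5% of its 31-base words also present in a processed pseudogene.

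The last role held 4 tested genes of polyamine transport together with Amd2, which is no transporter and holds the same reads as Amd1. Of these 5, 4 were called lower at day 4, Amd2 among them, where 36.4% of all tested genes were called lower. Slc22a3, an organic cation transporter that can carry polyamines, was at 53.2 and 46.3, 32.2 and 35.1, and 18.8 and 19.8 CPM and fell by 1.37 (SE 0.122, edgeR adjusted p = 2.21e-06). Atp13a3, a P-type ATPase linked to polyamine uptake, was at 268 and 240, 177 and 158, and 116 and 113 CPM and fell by 1.15 (SE 0.115, edgeR adjusted p = 5.13e-06). The days of both genes were separated. Atp13a2, which exports polyamines from lysosomes, was not called, at a log2 fold change of 0.24. None of the 5 remaining genes of catabolism and antizyme passed the filter. The highest of them, Paox (polyamine oxidase) and Oaz3 (the testis antizyme), held 21 counts each over all 6 libraries. Those of Paox were 11 and 10 counts in the day 0 libraries and 0 in each later library, where a count of 0 allows up to 3 counts, and no test was made.

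**Figure D4:**
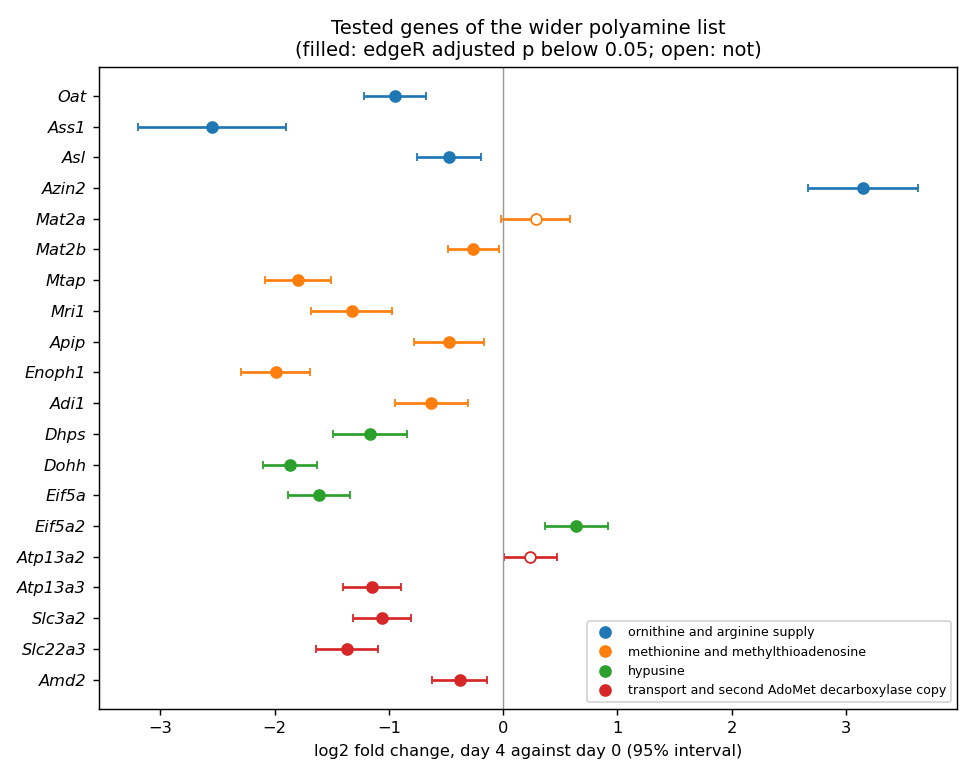
Log2 fold change from day 0 to day 4 (horizontal axis) of the 20 tested genes of the wider list, grouped by role, with 95% confidence intervals from the edgeR fit and filled points for an adjusted p below 0.05. Azin2 at 3.15 and Eif5a2 at 0.64 are the called genes to the right of 0, 16 called genes lie to the left, and Mat2a and Atp13a2 are not called.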

How the data were processed

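MEL cells were sampled at days 0, 2 and 4 of 2% DMSO, with 2 biological replicates per day. The authors trimmed adapters with cutadapt, used TopHat to align reads of strand-specific mRNA libraries to mm10, and the deposited values are raw counts of reads for each RefSeq transcript, unnormalized and unpooled. HTSeq is named in the submitters' processing notes, and its strand and overlap settings and the annotation release are not given in the sources used here. Reads on no feature were left out. Reads shared by transcripts of a gene appear in the count of each.

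Symbols were assigned to 32199 of 32654 transcripts from RefSeq (GRCm38.p6) and to 187 from GENCODE, and 268 had none. Counts were tested with edgeR 4.0.16 (R 4.3.3), using TMM factors, filterByExpr by day (18351 transcripts kept, representing 12381 genes) and a quasi-likelihood fit over all 6 libraries. Benjamini-Hochberg adjustment ran over all tested transcripts, and calls were made below 0.05. The spread was estimated from the replicates of all 3 days together, with information shared across transcripts, and each day had 2 biological replicates. Standard errors were derived from the F statistic. The members, the wider list and the markers were chosen with earlier results of these data known. All members are named, with the genes of the 2 largest absolute changes from day 0 to day 4 in each role of the wider list. Dhps, Eif5a2, Mat2a, Atp13a2, Paox and Oaz3 lie outside that rule and were named after their values were seen. Shared sequence was counted as 31-base words of the GENCODE transcripts. The fits were tested on simulated data. Alternatives were DESeq2 1.42.0, relative log expression factors, total counts, exclusion of globin transcripts, no filter beyond 1 count, only the 2 days compared, a replicate block, 1 transcript per gene, other member transcripts, and omission of each library.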

Additional observations from a re-analysis of the deposited data

How the results depend on the processing

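Of 405 member log2 fold changes computed under alternatives, 376 kept their direction and their side of the threshold, 12 lost and 11 gained a call with the same direction, and 6 turned. The rise of Smox held in every alternative run, with a log2 fold change of 4.47 to 4.71 from day 0 to day 4, as did the falls of Srm and Sms and the rise of Oaz2 from day 0 to day 2 and from day 0 to day 4. Those that turned were small and turned only when a library was left out. Over such omissions Amd1 ranged from -0.137 to 0.0149 and Oaz1 from -0.0324 to 0.245 from day 2 to day 4, and from day 0 to day 4 Sat1 ranged from -0.0150 to 0.0748 and Oaz1 from -0.360 to 0.0257. With a library left out, the lone sample of its day was assumed to vary like the others. Members called then ranged from 4 to 8, from 1 to 4 and from 5 to 7 for day 2 against day 0, day 4 against day 2 and day 4 against day 0, where the main counts were 6, 3 and 6. From day 2 to day 4 Smox was the only member called without replicate 1 or 2 of day 2 or replicate 2 of day 4, where all genes called numbered 937, 1628 and 1440 in place of 3749. The wider list ranged from 2 to 16 calls at that step, and gave 11 with total counts and 14 with only the 2 days compared, in place of 7. Total counts moved the median log2 fold change of all genes to 0.21, -0.09 and 0.10 in the same order of comparisons, and the share of calls that were higher from 49.6% to 63.4%, from 46.4% to 32.7% and from 49.4% to 55.1%. The replicate numbers were not shown to pair the samples, since the correlations of replicate differences between days were 0.0316, 0.0451 and 0.0791 over 18351 transcripts. With the replicate block 7, 3 and 6 members were called, Oaz1 being added from day 0 to day 2 (log2 fold change -0.27, edgeR adjusted p = 0.0392). DESeq2 called 6, 3 and 6. The cause of each lost call was not tested.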
